A study of Arabidopsis thaliana with 12 samples.

Results

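The transcripts encoded by the chloroplast and mitochondrial genomes of Arabidopsis thaliana were examined in shoot RNA-seq libraries of 4 genotypes. Members were all transcripts whose identifier begins with ATCG for the chloroplast or ATMG for the mitochondrion, which gave 209 of 32950 transcripts in the files, 88 chloroplast and 121 mitochondrial. The study compared AT-hook (AHL) factors and PHYTOCHROME INTERACTING FACTORs (PIFs), transcription factors with opposed roles in petiole growth. Each genotype had 3 libraries, and all plants were of the Columbia ecotype, 14 days old, and harvested at ZT4, 4 h after lights on. Growth was at 22 °C on medium without sucrose, with a day of 16 h of white light at about 35 to 55 µmol/m2/s and a night of 8 h, and the apical part above a cut in the hypocotyl was taken. Col-0 was the wild type. SOB3-D overexpresses SOB3, an AHL gene, and sob3-6 carries a dominant-negative SOB3 allele that arose in that overexpressing line. The fourth genotype carries pif4-101, pif5(pil6-1) and pif7-1 together, written pif4 pif5 pif7 here. No label says whether the 3 libraries of a genotype came from separate growths. A p-value therefore rests on scatter between libraries, some of which may be technical.

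Plant organelle genomes encode a small part of each organelle's proteins: in chloroplasts subunits of the photosystems, of rubisco, of the ATP synthase and of ribosomes, and in mitochondria subunits of the respiratory complexes, of the ATP synthase and of ribosomes. The nucleus encodes the rest, including the sigma factors that direct the bacterial-type plastid RNA polymerase and the phage-type polymerases of both organelles. Organelle genes are transcribed in clusters and cut into smaller RNAs, and a poly(A) tail marks an organelle RNA for decay, whereas on nuclear mRNA it is a stabilising end. The libraries were made with a kit that captures mRNA by its poly(A) tail. The organelle signal measured here is therefore what such a capture retained, and the part of poly(A) selection in any value was not tested.

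The level of a transcript is its tags per 1000000 mapped tags (ppm), and the authors' counting let a read add to each transcript that it matched. Chloroplast sequence also lies in the mitochondrial genome and in a large mitochondrial insertion on nuclear chromosome 2, and this touches the most abundant mitochondrial members. The identifiers were not paired with gene names by the files or the reference tables, except where the reference's note on a nuclear gene described its best-matching organelle protein. Such notes described 6 chloroplast and 24 mitochondrial members, and other members are given by identifier only. The following stretches, each of 100 bases read 5′ to 3′ along the chloroplast gene rbcL, which encodes the rubisco large subunit, are shown because they lie in the match between the genomes and show how few bases set the copies apart. They are from RefSeq's TAIR10.1 assembly, and capitals mark bases that differ from the chloroplast gene, 3 in the mitochondrial and 4 in the nuclear copy.
rbcL, chloroplast genome, chloroplast 55588 to 55687, + strand: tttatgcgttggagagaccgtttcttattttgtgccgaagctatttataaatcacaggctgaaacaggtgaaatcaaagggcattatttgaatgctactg
Match in the mitochondrial genome, mitochondrion 165073 to 165172, + strand: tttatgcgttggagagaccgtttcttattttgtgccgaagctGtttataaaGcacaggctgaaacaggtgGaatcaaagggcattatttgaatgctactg
Match in AT2G07732, chromosome 2 at 3468549 to 3468648, − strand: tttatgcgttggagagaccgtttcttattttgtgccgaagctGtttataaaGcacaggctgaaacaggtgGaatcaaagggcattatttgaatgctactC

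The full match of rbcL (chloroplast 54958 to 56397) to the mitochondrial genome covered 573 aligned bases, of which 557 were identical, with an unbroken identical run of 139 bases. The match to chromosome 2 inside AT2G07732 had 555 identical bases and a run of 110. The ycf1 fragment at chloroplast 109405 to 110436, a gene for a large plastid protein, matched mitochondrial and chromosome 2 sequence, the latter inside AT2G07739, with 523 of 536 bases identical. The ycf1 gene at chloroplast 123884 to 129244 gave the same match. The photosystem II gene psbA (383 to 1444, − strand) matched both genomes with 482 of 506 bases identical, on chromosome 2 inside AT2G07688. A read that falls wholly within an identical run matches every copy equally well, whereas a read across a differing base does not.

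Levels of members tied to these matches moved together, though high correlations were not limited to them. ATMG00280, whose note reads as the rubisco large chain, had 0.115 times the level of ATCG00490 on average, with a range of only 0.104 to 0.133 over the 12 libraries. ATMG00370, whose note reads as a Ycf1 protein, had 0.273 times the level of ATCG01000 (0.246 to 0.307), and AT2G07739 had 0.897 times that of ATMG00370 (0.872 to 0.921). Across the 12 libraries ATMG00280 correlated with AT2G07732 at r = 0.996 and with ATCG00490 at r = 0.992, as a description of values that share libraries and possibly reads. Members for which no match is given here came close. ATMG00280 correlated with ATCG00340 at r = 0.978, and ATMG00370 with ATCG00440 at r = 0.977, beside 0.974 with ATCG01000. How much of these correlations comes from shared reads was not tested. ATCG00020 correlated with AT2G07688 at r = 0.997, and the reference describes AT2G07688 as a pseudogene of the photosystem II reaction centre protein A. Among mitochondrial members with at least 50 reads in all, a further 6 had exactly the reads of a nuclear transcript in every library, among them ATMG00480 (ATP synthase subunit 8 by its note) with AT2G07707 and ATMG00980 (ribosomal protein S12) with AT2G07675. Their genome of origin cannot be told apart here. Within the chloroplast, 14 members formed 7 pairs with equal reads in all 12 libraries, such as ATCG00830 and ATCG01310 (ribosomal protein L2).

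The altered genes were read first. SOB3 was at 217.5 to 232 ppm in sob3-6, at 180 to 206 in SOB3-D and at most 0.362 in the other 6 libraries, and in pif4 pif5 pif7 PIF5 lay within 16.6 to 21.0 and PIF7 within 5.97 to 7.15 ppm, below every other library. PIF4 was also below every other library there, but less so, at 72.8 to 81.8 ppm against 132 to 143 in Col-0. Leaf transcripts were abundant in every library, with RBCS1A, a nuclear gene for the rubisco small subunit, at 16280 to 20660 ppm and LHCA1 of the photosystem I antenna at 6144 to 7461 ppm. The steps of the values gave the depth. SOB3-D was the shallowest, with 7637822 to 8877404 reads a library, followed by sob3-6 with 10179924 to 12567173, pif4 pif5 pif7 with 13809707 to 14734732 and Col-0 with 14488308 to 16075498. A count of 3 reads stood for 0.187 to 0.393 ppm. Col-0 replicate 1 stood apart from its group: 81 of the 83 chloroplast transcripts that passed the filter on low values were above their Col-0 mean, by a median of 0.25 on the log2 scale, and so were 37 of 44 mitochondrial ones, while the nuclear median shifted by 0.01. Sums and counts against Col-0 are therefore also given without this library, as are members described as called where leaving it out ended the call or moved the difference by over 1.5 times.

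Summed chloroplast level in Col-0 was 24009, 19784 and 20219 ppm in replicates 1, 2 and 3, in sob3-6 20515, 20297 and 20674, in SOB3-D 16430, 18520 and 17924, and in pif4 pif5 pif7 19416, 18454 and 18257. All SOB3-D and all pif4 pif5 pif7 libraries lay below all libraries of Col-0 and of sob3-6, which overlapped each other. As a share of mapped tags the means were 2.13% ± 0.232 in Col-0, 2.05% ± 0.0189 in sob3-6, 1.76% ± 0.108 in SOB3-D and 1.87% ± 0.0620 in pif4 pif5 pif7 (SD, n = 3 each). Because some tags were counted in several transcripts, such a share is exact only as far as no tag was counted again within the sum. The 4 genotypes differed by an exact permutation test of the log2 sums (p = 0.00636, adjusted over the 2 genomes 0.0127). The sum in SOB3-D was 0.828 times that of Col-0, a log2 difference of −0.27 (SE 0.08, from the spread pooled over genotypes). That of pif4 pif5 pif7 was 0.880 times (−0.18). For both the exact two-sided permutation test gave 0.1, the smallest p that 3 against 3 libraries allow. sob3-6 was 1.16 times SOB3-D (log2 0.22, exact p = 0.1) and differed from Col-0 by −0.05 (exact p = 1.0). In bulk tissue, fewer organelles or cells of a type and less RNA per cell cannot be told apart. Without Col-0 replicate 1 the differences from Col-0 were 0.04 in sob3-6, −0.18 in SOB3-D and −0.10 in pif4 pif5 pif7, and the 4 genotypes still differed (exact permutation p = 0.0052).

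Summed mitochondrial level was lower by a factor of 90.6 on average (77.0 to 111 over the libraries). It was 312, 217 and 257 ppm in Col-0, 241, 239 and 226 in sob3-6, 157, 232 and 179 in SOB3-D, and 219, 196 and 164 in pif4 pif5 pif7. Every pair of genotypes overlapped apart from sob3-6 against pif4 pif5 pif7. The means were 0.0262% ± 0.00475, 0.0235% ± 0.000811, 0.0189% ± 0.00385 and 0.0193% ± 0.00278 of mapped tags (SD, n = 3), and the genotypes were not told apart by the exact permutation test (p = 0.0792). The log2 differences from Col-0 were −0.14 in sob3-6, −0.47 in SOB3-D and −0.44 in pif4 pif5 pif7, each with a pooled SE of 0.18. Without the 2 members that match chloroplast sequence they were −0.01, −0.30 and −0.35 (exact permutation p = 0.103), a choice made after seeing the data. With every member but without Col-0 replicate 1 they were −0.01, −0.34 and −0.30 (exact permutation p = 0.163). Leaving out SOB3-D replicate 2, the highest of its group, brought the exact p to 0.023, and leaving out Col-0 replicate 2 brought it to 0.0476.

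**Figure D1:**
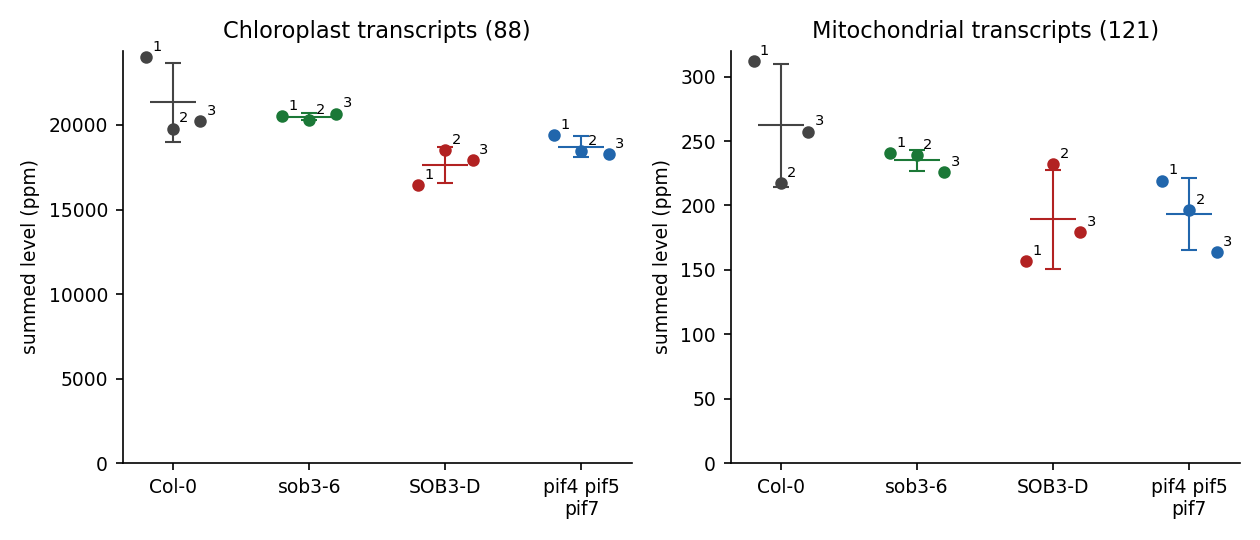
Summed level in ppm of the 88 chloroplast transcripts (left) and the 121 mitochondrial transcripts (right) by genotype; points are libraries with their replicate number, horizontal lines the mean and bars the SD of 3 libraries. The SOB3-D and pif4 pif5 pif7 chloroplast sums lie below all Col-0 and sob3-6 sums, and Col-0 replicate 1 is the highest library for both genomes.

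The replicate spread of the sums differed between genotypes. The coefficient of variation of the chloroplast sum was 10.9% in Col-0, 6.11% in SOB3-D, 3.31% in pif4 pif5 pif7 and 0.923% in sob3-6, and that of the mitochondrial sum 18.1%, 20.3%, 14.4% and 3.45% in the same order. The difference in spread between genotypes was not tested. Deviations of the 2 sums from their genotype means moved together over the 12 libraries (Pearson r = 0.840, exact permutation within genotypes p = 0.0131; Spearman rho = 0.790, exact p = 0.0363). Without the farthest libraries, Col-0 replicates 1 and 2, r was 0.787. Without the 2 mitochondrial members that match chloroplast sequence, r was 0.834 (exact permutation p = 0.0139). The sums come from the same libraries, and no other relation between sums was tested.

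The chloroplast signal was concentrated in few transcripts. ATCG00480 alone held 31.7% of the summed level on average (27.7 to 36.0% over the libraries), ATCG00480 and ATCG00470 together 42.2%, and the 8 most abundant members 69.8%. ATCG00480 was at 6660, 6210 and 6094 ppm in Col-0, at 6059, 5984 and 6343 in sob3-6, at 5910, 6067 and 6208 in SOB3-D, and at 6204, 6049 and 6061 in pif4 pif5 pif7. All groups overlapped, and no comparison passed the test (log2 differences of −0.06 to 0.02, limma adjusted p of 0.282 to 0.788). Its share of the chloroplast sum was 29.8% in Col-0 and 34.5% in SOB3-D, since the other members summed to less there.

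ATCG00470, its neighbour by identifier, rose in SOB3-D and in pif4 pif5 pif7. It was at 1959, 1826 and 1848 ppm in Col-0, at 1852, 1781 and 1894 in sob3-6, at 2054, 2111 and 2182 in SOB3-D, and at 2252, 2218 and 2260 in pif4 pif5 pif7. The SOB3-D and pif4 pif5 pif7 libraries all exceeded those of Col-0 and sob3-6. The log2 difference from Col-0 was 0.17 in SOB3-D (SE 0.04, limma adjusted p = 0.00152) and 0.26 in pif4 pif5 pif7 (adjusted p = 9.4e-05), and sob3-6 was lower than SOB3-D by −0.20 (adjusted p = 0.000236). Both comparisons with Col-0 share its libraries.

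The other 6 of the most abundant chloroplast members were all called higher in sob3-6 than in SOB3-D, beside 24.6% of all transcripts. In SOB3-D against Col-0 3 of them were called lower, beside 14.6% of all transcripts. In sob3-6 against Col-0 none was called, where 9.96% of all transcripts were called higher and 4.04% lower. ATCG00830 and ATCG01310 had equal reads in every library, so this pair is a single measurement counted again within the 6. ATCG01130 was at 1931, 1497 and 1350 ppm in Col-0, 1503, 1717 and 1657 in sob3-6, 1022, 1122 and 1155 in SOB3-D, and 1383, 1323 and 1290 in pif4 pif5 pif7, with SOB3-D below all others. It fell in SOB3-D by 0.52 (adjusted p = 0.0131) and was higher in sob3-6 than in SOB3-D by 0.56 (adjusted p = 0.00692). The ribosomal protein L2 pair, ATCG00830 and ATCG01310, was at 1121, 847.9 and 932.1 ppm in Col-0, 1112, 1026 and 1068 in sob3-6, 702.2, 875.4 and 823.5 in SOB3-D, and 863.5, 821 and 862.8 in pif4 pif5 pif7. It passed the test only between sob3-6 and SOB3-D (0.42, adjusted p = 0.014). ATCG00800 fell in SOB3-D (−0.30, adjusted p = 0.0492, and −0.17 without Col-0 replicate 1, adjusted p = 0.0177) and was higher in sob3-6 than in SOB3-D (0.47, adjusted p = 0.0049), ATCG00790 differed only between sob3-6 and SOB3-D (0.27, adjusted p = 0.0036), and ATCG01020 fell in SOB3-D by 0.30 (adjusted p = 2.22e-05).

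Chloroplast members varied more between replicates than nuclear transcripts of like level. The SD within genotypes on the log2(ppm + 1) scale was above the 90th percentile of nuclear transcripts in the same range of level for 59 of 83 chloroplast members (71.1%) and 16 of 44 mitochondrial members (36.4%), against 10% of nuclear transcripts by construction. At mean levels of 100 to 300 ppm the median SD was 0.149 for chloroplast and 0.0591 for nuclear transcripts, and at 10 to 30 ppm it was 0.19 for chloroplast, 0.235 for mitochondrial and 0.104 for nuclear ones. Above 1000 ppm the 3 chloroplast members had a median SD of 0.0453, close to the nuclear 0.0526. At 0 to 3 ppm the medians were 0.229, 0.218 and 0.207 for chloroplast, mitochondrion and nucleus. The replicate deviations were largely shared: the first principal component held 70.2% of the within-genotype variance of the 83 chloroplast members, and 80 of them loaded with the same sign. Besides Col-0 replicate 1, SOB3-D replicate 2 had 75 of 83 chloroplast members above its genotype mean and pif4 pif5 pif7 replicate 1 had 74.

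**Figure D2:**
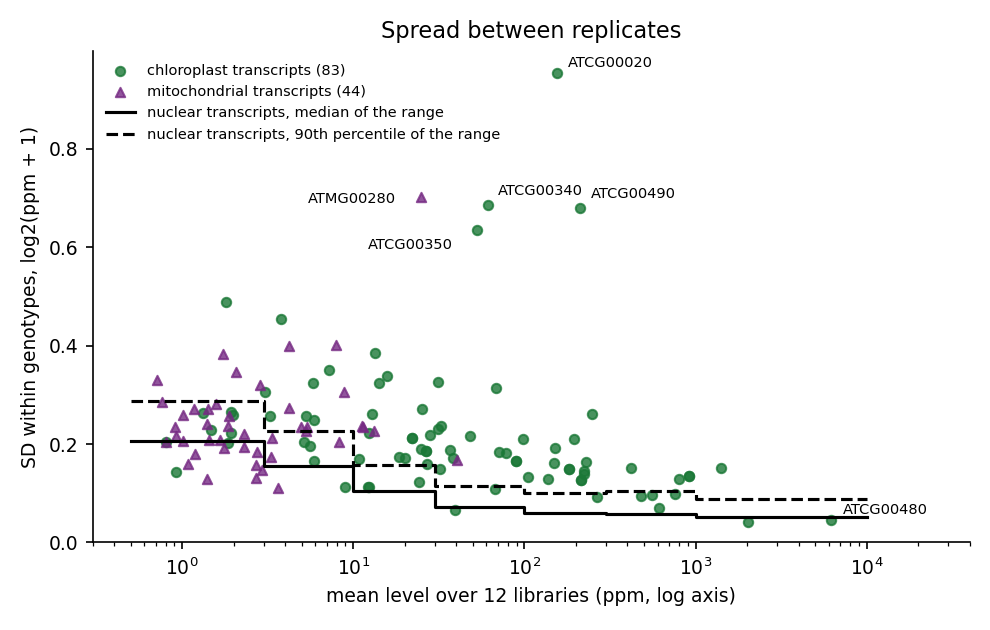
SD within genotypes of log2(ppm + 1) against mean level over 12 libraries (ppm, log axis) for the 83 chloroplast (circles) and 44 mitochondrial (triangles) members that passed the filter on low values; the steps show the median (solid) and the 90th percentile (dashed) of nuclear transcripts in each range of level. Of the chloroplast members 59 lie above the dashed line, and ATCG00020, at 0.95, is the widest.

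The members with the widest spread, named after their values were seen, were ATCG00020 (SD 0.95), ATMG00280 (0.70), ATCG00340 (0.69), ATCG00490 (0.68) and ATCG00350 (0.63). ATCG00020 was at 380.5, 179.9 and 324.3 ppm in Col-0, 91.2, 70.0 and 46.8 in sob3-6, 57.5, 357.5 and 63.5 in SOB3-D, and 172, 78.0 and 45.0 in pif4 pif5 pif7. SOB3-D replicate 2 was at the Col-0 level while the other SOB3-D libraries were far below it. ATCG00490 was likewise highest of its group in SOB3-D replicate 2, with 110, 294 and 89.0 ppm in SOB3-D against 414, 270 and 358 in Col-0. ATMG00280 followed, with 11.6, 39.2 and 9.23 ppm in SOB3-D and 51.2, 29.3 and 41.0 in Col-0. For none of the 5 did any comparison pass the test. ATCG00020 differed from Col-0 by −2.06 in sob3-6 (SE 0.77, limma adjusted p = 0.124), −1.35 in SOB3-D (adjusted p = 0.254) and −1.72 in pif4 pif5 pif7 (adjusted p = 0.264). The test used a spread pooled over genotypes, and a failed test does not show equal levels. For ATCG00020, ATCG00340, ATCG00350 and ATCG00490 every sob3-6 library lay below every Col-0 library, whereas SOB3-D overlapped Col-0. In pif4 pif5 pif7 ATCG00020 also lay below Col-0, and ATCG00340, ATCG00350 and ATCG00490 overlapped it. These members were picked for their spread, and the share of all transcripts that separate likewise was not counted. No difference between sob3-6 and SOB3-D follows from this. The nuclear transcript AT2G01021 (chromosome 2 at 6571 to 6672), also picked after its values were seen, varied likewise, from 154 to 583 ppm, and correlated with ATCG00490 at r = 0.965. It lies just beyond AT2G01010 and AT2G01020, which the reference types as rRNA, and no nuclear gene so typed was listed in the files. Whether the level of rRNA carried over differed between libraries was not tested.

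**Figure D3:**
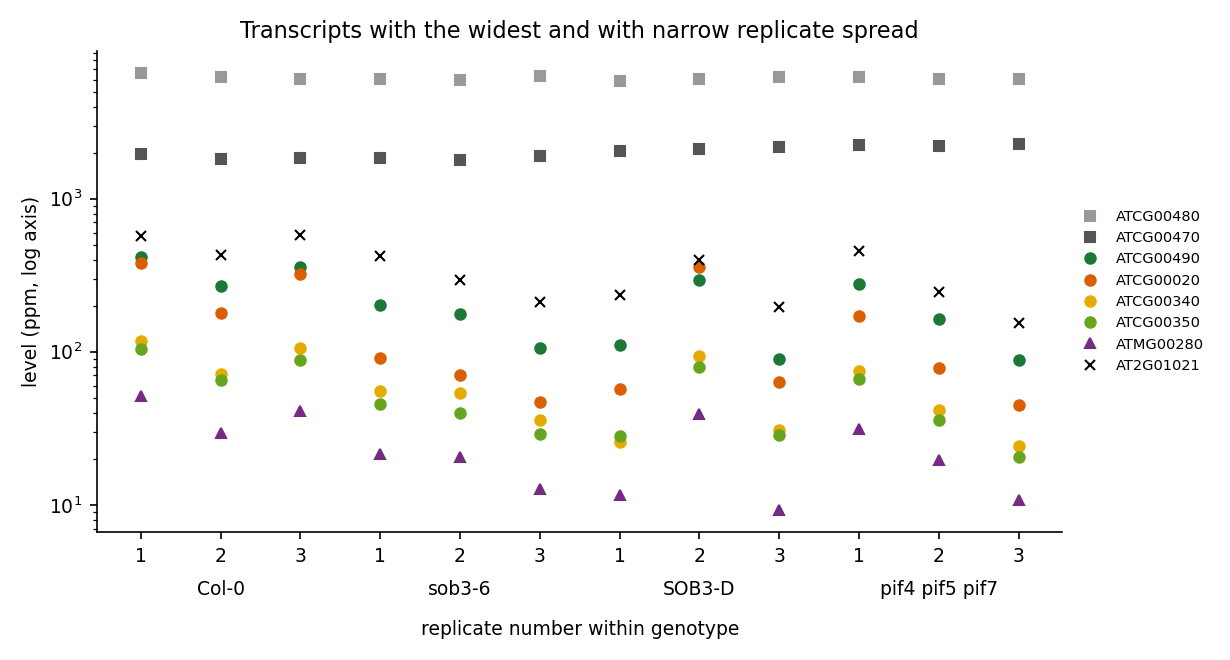
Level (ppm, log axis) of single transcripts in each of the 12 libraries, ordered by genotype and replicate number; squares are ATCG00480 and ATCG00470, circles and triangles the 5 members with the widest spread, and crosses the nuclear AT2G01021. ATCG00020 is at 357.5 in SOB3-D replicate 2 and at 57.5 and 63.5 in the other SOB3-D libraries, while ATCG00480 stays between 5910 and 6660.

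Differences between genotypes were tested with limma on log2(ppm + 1) over all 25710 transcripts that passed the filter, of which 83 were chloroplast and 44 mitochondrial members, and called at an adjusted p under 0.05. The remaining 5 chloroplast and 77 mitochondrial members were too low, 3 of the latter being at 0 in every library and 44 under 0.1 ppm in mean. Shares of all transcripts called are from the fit of all 12 libraries, and were not counted for fits without a library. A member that passed through its higher group alone had more room to differ, so the counts describe the members that passed and not all members. The fit took a single spread per transcript over all genotypes and drew it toward that of transcripts of like level. This common spread weighed as 21.3 degrees of freedom in the median over all transcripts, beside 8 from the transcript itself. Most transcripts are nuclear, and chloroplast members varied more between replicates. SE and adjusted p of members may therefore be too small, which was not tested.

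SOB3-D differed most from Col-0. Of the 83 chloroplast members 47 were called lower and 1 higher (ATCG00470), where 14.6% of all transcripts tested were called lower and 11.9% higher. The median log2 difference was −0.52, beside −0.02 over all transcripts. Of the 44 mitochondrial members 6 were called lower and none higher, with a median of −0.16, a share near the background. Members called lower were mostly of middle abundance: 24 of 36 between 10 and 100 ppm, 17 of 24 between 100 and 1000 ppm, and 5 of 20 under 10 ppm. The median differences in these ranges were closer, at −0.57, −0.62 and −0.42. The share of all transcripts called in each range was not counted. Consecutive identifiers among the members tested were often called together. The longest runs were the 10 members from ATCG01090 to ATCG01300 (−1.05 to −0.48) and the 8 from ATCG00840 to ATCG01020 (−0.94 to −0.30). These runs share reads, since ATCG01230, ATCG01240, ATCG01250, ATCG01280 and ATCG01300 equalled ATCG00905, ATCG00900, ATCG00890, ATCG00860 and ATCG00840 in every library. A further run was the 5 from ATCG00360 to ATCG00440 (−0.62 to −0.27). With 47 of the 83 members called lower, runs also arise without any tie between neighbours, and their length was not tested. Without Col-0 replicate 1, 40 chloroplast members were called lower, 38 of them among the 47, with a median of −0.39, and 2 mitochondrial members were. The 6 mitochondrial calls also came down to 3 without SOB3-D replicate 1 and to 2 without SOB3-D replicate 3. Without SOB3-D replicate 2, the highest of its group for most members, 58 were called lower.

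Within SOB3-D the largest called differences were those of ATCG00180, ATCG01100 and ATCG00660. ATCG00180 was at 30.7, 25.9 and 25.4 ppm in Col-0, 21.6, 26.4 and 21.0 in sob3-6, 10.5, 14.9 and 11.3 in SOB3-D, and 17.2, 19.1 and 17.2 in pif4 pif5 pif7. The SOB3-D libraries were below all others, and the log2 difference from Col-0 was −1.11 (SE 0.11, adjusted p = 6.6e-08). ATCG01100 was at 48.1, 28.2 and 31.8 ppm in Col-0 and at 12.4, 17.8 and 19.98 in SOB3-D, a difference of −1.05 (adjusted p = 0.00708) that was −0.83 without Col-0 replicate 1 (adjusted p = 0.00192).

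Ribosomal protein transcripts were the described chloroplast group with more than one member. Of the 3, L2, L20 and S11, none was called in sob3-6, 2 were called lower in SOB3-D and in pif4 pif5 pif7, and all 3 were called higher in sob3-6 than in SOB3-D. Over all 83 chloroplast members the shares called lower were 56.6% in SOB3-D and 30.1% in pif4 pif5 pif7, and 50.6% were higher in sob3-6 than in SOB3-D, beside 14.6%, 4.76% and 24.6% of all transcripts. ATCG00660, ribosomal protein L20 of the large subunit, was at 37.6, 29.1 and 28.4 ppm in Col-0, 30.3, 29.9 and 32.0 in sob3-6, 15.7, 15.9 and 14.8 in SOB3-D, and 19.8, 17.7 and 19.99 in pif4 pif5 pif7. Col-0 and sob3-6 overlapped, and both other genotypes lay below them. It fell by 0.98 in SOB3-D (SE 0.09, adjusted p = 4e-10) and by 0.69 in pif4 pif5 pif7 (adjusted p = 2.36e-06). Without Col-0 replicate 1 these were −0.85 and −0.56. ATCG00750, ribosomal protein S11 of the small subunit, fell in SOB3-D by 0.59 (adjusted p = 0.000432) and in pif4 pif5 pif7 by 0.45 (adjusted p = 0.0129).

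Of the other described chloroplast members, ATCG00430 fell by 0.39 in SOB3-D (adjusted p = 8.45e-05) and by 0.24 in pif4 pif5 pif7 (adjusted p = 0.0206). Its note reads as photosystem II protein G, a name that was not checked, so no role in photosystem II is claimed. ATCG00670, a subunit of the Clp protease that degrades stromal proteins, fell by 0.42 (adjusted p = 6.28e-06) and by 0.23 (adjusted p = 0.0279). Neither was called in pif4 pif5 pif7 without Col-0 replicate 1, with −0.15 (adjusted p = 0.0929) for ATCG00430 and −0.20 (adjusted p = 0.125) for ATCG00670. ATCG00530, noted as a CemA-like envelope protein, passed no test, with −0.18 in SOB3-D and −0.23 in pif4 pif5 pif7.

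In pif4 pif5 pif7, 25 chloroplast members were called lower and 2 higher, where 4.76% of all transcripts were called lower and 1.53% higher, and 3 mitochondrial members were called lower. The chloroplast median was −0.43, beside −0.04 over all transcripts. Without Col-0 replicate 1, 20 were called lower, 18 of them among the 25, with a median of −0.32. The count rested more on this genotype's own libraries: without its replicate 2 it was 13 and without its replicate 3 it was 10. The 3 mitochondrial members were also called without Col-0 replicate 1, and their count went to 5 without Col-0 replicate 2 or without replicate 1 of pif4 pif5 pif7. ATCG01060, a low member, was at 2.67, 1.62 and 2.28 ppm in Col-0 and at 0.715, 0.814 and 0.290 in pif4 pif5 pif7 (−0.99, adjusted p = 0.00134). ATCG00890, at 45.5, 33.0 and 33.1 ppm in Col-0, was at 23.2, 21.3 and 19.0 (−0.77, adjusted p = 0.00263). ATCG00080 went the other way, from 6.84, 8.23 and 8.42 ppm in Col-0 to 13.2, 12.3 and 10.9 (0.57, SE 0.11, adjusted p = 0.00115).

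In sob3-6, 5 chloroplast members were called lower and none higher, beside 4.04% of all transcripts lower and 9.96% higher, and 21 of the 83 had an unadjusted p under 0.05. The share called lower was near the background. ATCG00690 was at 8.15, 7.92 and 7.94 ppm in Col-0 and at 3.61, 5.80 and 6.37 in sob3-6 (−0.55, SE 0.16, adjusted p = 0.0197). ATCG00550 (−0.41, adjusted p = 0.0345) and ATCG00070 (−0.41, adjusted p = 0.0175) were next, and the pair ATCG00900 and ATCG01240 made up the 5. Some of these calls depended on Col-0 replicate 1. Without it 12 chloroplast members (14.5%) were called higher and 2 lower, both among the 5, and the median moved from −0.13 to −0.02. The share of all transcripts called higher without this library was not counted, so the 12 cannot be set against it. The first 3 were then no longer called, with limma adjusted p of 0.0627, 0.137 and 0.107. Among the 12, ATCG00800 differed by 0.29 (adjusted p = 0.00032) and ATCG00790 by 0.23 (adjusted p = 0.00372). The number called lower was also 2 or fewer without Col-0 replicate 3 or without any single sob3-6 library.

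The comparison of sob3-6 with SOB3-D uses no Col-0 library. It called 42 chloroplast members higher in sob3-6 and 2 lower, where 24.6% of all transcripts were called higher and 11% lower, with a median of 0.37 beside 0.08 over all transcripts. The largest were ATCG00630, ATCG01110 and ATCG00040. ATCG00630 was at 256.8, 166.1 and 186.7 ppm in sob3-6 and at 93.6, 104.3 and 105.6 in SOB3-D (0.98, SE 0.15, adjusted p = 0.00132). ATCG01110 was at 61.5, 58.8 and 66.4 ppm against 26.4, 35.3 and 33.7 (0.96, adjusted p = 0.00265). ATCG00040 was at 92.3, 97.0 and 102.5 ppm against 41.9, 56.7 and 52.1 (0.95, adjusted p = 0.000938). None of these groups overlapped. The 2 lower members were ATCG00470 and ATCG00080 (−0.35, adjusted p = 0.0136). Counting each pair of equal copies once left 77 chloroplast members, of which 37 were called higher and 2 lower, and in SOB3-D against Col-0 42 lower and 1 higher.

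**Figure D4:**
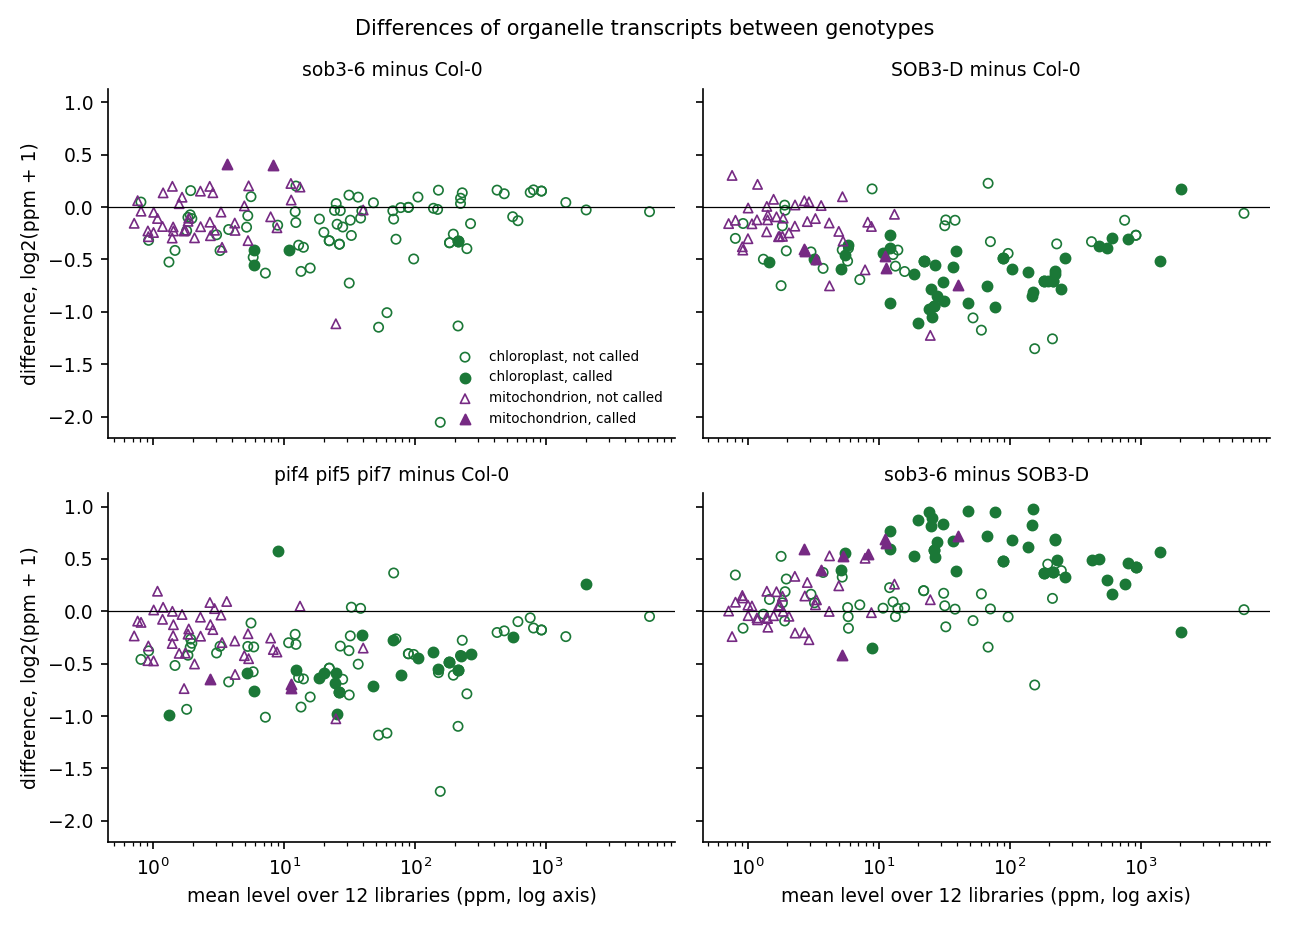
Difference in log2(ppm + 1) against mean level over 12 libraries (ppm, log axis) for the 83 chloroplast (circles) and 44 mitochondrial (triangles) members that passed the filter, in 4 comparisons; filled symbols passed an adjusted p of 0.05 in limma. Most chloroplast members between 10 and 1000 ppm lie below 0 in SOB3-D and pif4 pif5 pif7, where 47 and 25 were called lower, and ATCG00480 at the right edge lies near 0.

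Among mitochondrial members the 2 most abundant, ATMG00370 and ATMG00280, were those that match chloroplast sequence, and held 29.0% of the mitochondrial sum (22.4 to 35.9%). ATMG00370 was at 60.8, 40.9 and 43.5 ppm in Col-0, 46.9, 45.8 and 47.7 in sob3-6, 25.1, 28.4 and 31.0 in SOB3-D, and 37.3, 37.1 and 37.1 in pif4 pif5 pif7, with SOB3-D below all others. It fell in SOB3-D by 0.74 (SE 0.12, adjusted p = 0.000564) and was higher in sob3-6 than in SOB3-D by 0.72 (adjusted p = 0.000567). Since its level kept a near constant ratio to ATCG01000, how much of it came from mitochondrial RNA was not tested.

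Mitochondrial members described by a note as of the respiratory chain or the ATP synthase mostly did not pass the test. Of 5 described ATP synthase members that passed the filter, ATMG00410, noted as ATPase subunit 6-1 of the proton channel, fell in SOB3-D, from 4.60, 3.87 and 4.35 ppm in Col-0 to 2.62, 3.04 and 2.57 (−0.49, adjusted p = 0.0192; without Col-0 replicate 1, adjusted p = 0.0785). ATMG01190, noted as ATP synthase subunit 1, was at 10.7, 9.10 and 10.3 ppm in Col-0 and at 6.42, 12.5 and 8.06 in SOB3-D, which overlapped (−0.19, adjusted p = 0.611). Of the 2 complex III members ATMG00590, noted as cytochrome b, was lower in sob3-6 than in SOB3-D (−0.42, adjusted p = 0.0308), although the groups overlapped at 5.45, 3.14 and 4.77 against 4.84, 7.77 and 6.19 ppm. Its reads equalled those of a nuclear transcript. Neither the 2 complex I and 2 complex IV members nor the 3 ribosomal protein members so described that passed the filter were called in any comparison. Members without a described name, some of which were called, may belong to these groups.

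ATMG00090, ATMG00640 and ATMG00070, which carried no described name, were called in several comparisons. ATMG00090 was at 17.9, 10.3 and 13.9 ppm in Col-0, 13.6, 16.0 and 13.8 in sob3-6, 7.73, 10.3 and 8.65 in SOB3-D, and 9.23, 7.19 and 7.24 in pif4 pif5 pif7. It fell in SOB3-D by 0.58 (adjusted p = 0.00784) and in pif4 pif5 pif7 by 0.74 (adjusted p = 0.00677). ATMG00640 (−0.69, adjusted p = 0.011) and ATMG00070 (−0.65, adjusted p = 0.00605) were the others called lower in pif4 pif5 pif7, and both were also called lower in SOB3-D, where without Col-0 replicate 1 their adjusted p became 0.125 and 0.188. In sob3-6 2 members, 4.55% of the 44, were called higher than in Col-0, beside 9.96% of all transcripts. ATMG00520 went from 8.65, 8.29 and 7.66 to 9.86, 10.4 and 13.5 ppm (0.41, adjusted p = 0.0413) and ATMG00660 from 3.36, 3.30 and 2.97 to 4.49, 4.62 and 4.70 ppm (0.41, adjusted p = 0.0393). Without Col-0 replicate 1 these were 0.0676 and 0.0704, and leaving out any library of either genotype left at most 1 member called. Between sob3-6 and SOB3-D 7 mitochondrial members were called higher and 1 lower, or 15.9% and 2.27% of the 44, both below the 24.6% and 11% over all transcripts. The lower call was lost without sob3-6 replicate 2, SOB3-D replicate 2 or SOB3-D replicate 3.

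Nuclear genes that act on organelle RNA were measured alongside. Of 9 genes for organelle transcription (sigma factors and phage-type polymerases), 2 were called lower in sob3-6, 4 lower in SOB3-D and none in pif4 pif5 pif7, and none was higher, beside 4.04%, 14.6% and 4.76% of all transcripts called lower. RPOTP (AT2G24120, listed as SCA3), the phage-type polymerase of plastids, fell from 56.3 ± 5.41 ppm in Col-0 to 37.2 in SOB3-D (−0.58, adjusted p = 3.93e-08). RPOTM (AT1G68990), its mitochondrial relative, fell from 28.1 to 22.3 ppm (−0.32, adjusted p = 0.00432), and SIG4 (−0.20) and SIG6 (−0.17) were also called lower, SIG4 not without Col-0 replicate 1 (adjusted p = 0.072). SIG5 (AT5G24120), a sigma factor known to respond to light and stress, fell in sob3-6 from 86.7 to 59.7 ppm (−0.53, adjusted p = 3.03e-06), as did SIG3 (−0.22, adjusted p = 0.0146).

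Of 8 genes for organelle RNA decay, 5 were called lower and 1 higher in SOB3-D, 2 lower in sob3-6 and 1 higher in pif4 pif5 pif7. Over all transcripts 14.6% were called lower and 11.9% higher in SOB3-D, 4.04% lower in sob3-6 and 1.53% higher in pif4 pif5 pif7. Between sob3-6 and SOB3-D 6 of the 8 were called higher and 1 lower, beside 24.6% and 11% of all transcripts. Where a gene of either nuclear list had several transcripts, the most abundant was tested, whereas ppm are of the transcript numbered 1. The chloroplast polynucleotide phosphorylase (AT3G03710), an exonuclease that also adds tails, fell from 130 ppm in Col-0 to 97.3 in SOB3-D (−0.41, adjusted p = 4.19e-07) and 109 in sob3-6 (−0.24, adjusted p = 0.00192). Its mitochondrial counterpart (AT5G14580) fell in SOB3-D from 13.6 to 8.25 ppm (adjusted p = 4.94e-06), RNase J (AT5G63420) by 0.38 (adjusted p = 5.38e-05) and RHON1 (AT1G06190) by 0.32 (adjusted p = 8.59e-06). RNR1 (AT5G02250) fell by 0.18 (adjusted p = 0.0224), and CSP41A (AT3G63140), an RNA-binding protein of chloroplasts, rose by 0.13 (adjusted p = 0.0169). CSP41B (AT1G09340) was lower in sob3-6 (−0.16, adjusted p = 0.00951) and higher in pif4 pif5 pif7 (adjusted p = 0.00752). RNase E (AT2G04270) was not called against Col-0. Its transcript numbered 1 was at 59.53, 61.84 and 58.05 ppm in Col-0 and at 50.8, 50.69 and 49.55 in SOB3-D, without overlap. The count of calls can thus depend on the transcript chosen. Their part in the organelle levels was not tested.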

How the data were processed

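The deposited values were a signal, ppm of mapped tags per transcript, which the authors made from single libraries without pooling per the files; per the submitters' processing notes bcl2fastq, Bowtie 1.2.1 and the TAIR10 build were used. The values were whole multiples of the worth of 1 read (100% within 0.01 reads), which gave the depth. Intervals and floors cover counting error only. Transcripts at 1 ppm or more in at least 3 of 12 libraries were kept (25710) and log2(ppm + 1) was fitted over all 12 libraries with limma 3.58.1 in R 4.3.3 (trend, robust, 8 residual degrees of freedom, Benjamini-Hochberg adjustment over all kept transcripts). Fold changes on this scale understate the change of low transcripts. edgeR 4.0.16 and DESeq2 1.42.0 on the recovered whole reads, a pseudocount of 0.1 ppm, no filter, a scaling by nuclear transcripts, a replicate block, single comparisons and leaving out each library were alternatives. Summed levels were compared between 2 genotypes by two-sided exact permutation tests. Across the 4 genotypes the exact permutation test was one-sided by construction, on the ratio of between-genotype to within-genotype sums of squares. Sequences were compared with blastn 2.17.0 (E at most 1e-20) in RefSeq's TAIR10.1; the mitochondrial sequence of the files' own build was not used here. Named members were the 8 most abundant of each genome, the 3 largest called differences each way per comparison, the lowest p in role groups with several calls, and called genes of the nuclear lists. Members and lists were chosen with earlier results of these data known. The rule's identifiers stood in the first column of the files. Counting equal copies once, and the mitochondrial sums without members that match chloroplast sequence or equal a nuclear transcript, were alternatives chosen after seeing the data.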

Additional observations from a re-analysis of the deposited data

How the results depend on the processing

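Of 189 values of the 27 sums, tests and counts under alternatives other than leaving out a library, 172 kept their direction and either their side of the threshold or, without a test, a value within the replicate spread or a count within 1.5 times, and 17 moved. None reversed, and the cause was not tested. Nuclear scaling gave chloroplast sum differences of −0.12 for sob3-6 and 0.14 for sob3-6 minus SOB3-D. Without the most abundant member the chloroplast sum differed by −0.37 for SOB3-D against Col-0 and by 0.32 for sob3-6 against SOB3-D. In sob3-6 against Col-0 chloroplast members called lower were 5 in the reported fit, 9 with nuclear scaling, 13 with edgeR, 15 with DESeq2 and 16 when only the 2 genotypes were fitted. Mitochondrial members called higher there were 2, and 1 without a filter, 0 with nuclear scaling, 1 with edgeR and 0 with DESeq2; called lower were 0, and 1 without a filter or with only the 2 genotypes. DESeq2 called 3 mitochondrial members lower in SOB3-D (6 reported) and 4 higher in sob3-6 than in SOB3-D (7 reported), of which the single lower call became 2 without a filter and 0 with only the 2 genotypes.

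Leaving out each library in turn gave chloroplast sum differences of −0.10 to 0.04 (sob3-6), −0.32 to −0.18 (SOB3-D), −0.24 to −0.10 (pif4 pif5 pif7) and 0.17 to 0.26 (sob3-6 minus SOB3-D), with exact permutation p from 0.00195 to 0.0344. Mitochondrial sum differences were −0.27 to −0.01, −0.63 to −0.34, −0.56 to −0.30 and 0.205 to 0.49, with exact permutation p from 0.023 to 0.163. Chloroplast calls ranged from 0 to 12 higher and 1 to 7 lower in sob3-6, 1 higher and 36 to 58 lower in SOB3-D, 2 higher and 10 to 26 lower in pif4 pif5 pif7, and 36 to 42 higher and 2 lower in sob3-6 against SOB3-D. Mitochondrial calls ranged from 0 to 1 higher and 0 lower in sob3-6, 0 higher and 2 to 7 lower in SOB3-D, 0 higher and 3 to 5 lower in pif4 pif5 pif7, and 6 to 8 higher and 0 to 1 lower in sob3-6 against SOB3-D.

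Replicate numbers were shared between genotypes, and same-numbered libraries correlated at −0.049 to 0.153 (median 0.0489, 4 of 18 pairs over 0.1), beside a median of −0.0139 over 36 other pairs with 1 over 0.1. Since not every pair passed 0.1 the numbers were not taken to pair the samples, although the data hint at it. That rule cannot exclude a tie between same-numbered libraries. With the number as a replicate block, the exact permutation p across genotypes was 0.0226 for the chloroplast sum, against 0.00636 without it. For the mitochondrial sum it was 0.13, against 0.0792. With the same block, chloroplast members called lower were 42 in SOB3-D and 18 in pif4 pif5 pif7, and mitochondrial ones 7 and 6. Of the 12 libraries 7 correlated best with their own number. Leaving out rRNA and tRNA members was planned and not run, since the identifiers are not paired with gene types here. With mitochondrial sums of 1197 to 5016 reads and most of these members under 10 ppm, counting error is largest for these members. What size of difference could be detected was not tested.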
